A study of Mus musculus with 4 samples.

Results

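The cell cycle genes described here are 43 genes chosen by symbol from the 22547 features that each of 4 single-cell libraries listed, and all 43 were found. They comprise 24 G2/M genes, whose messages build up before and during mitosis, 15 S genes of DNA replication, and 4 G1 cyclins. The libraries came from lungs of Gramd2creERT2;mTmG mice, in which Gramd2, known for its expression in alveolar type I (AT1) cells, drives a tamoxifen-inducible Cre that switches a reporter from membrane tdTomato to membrane EGFP. The day 0 sample was described as lung cells sorted as GFP-positive, and its reporter UMIs by cell type are given below. The samples of days 8, 13 and 20 were organoid cultures of such sorted cells in growth factor-reduced Matrigel seeded on MLg fibroblasts (an established line from mouse lung) with SB 431542, an inhibitor of TGF-beta type I receptors. The cultures were dissociated and EpCAM-bearing cells were retained with antibody-coupled beads. The labels call all 4 samples alveolar epithelial cells and give no number of animals, age or tamoxifen dose. With 1 library for each day there is no replicate to set a difference against, so no test was made and every interval is a 95% interval for counting error alone. Day, sort, bead enrichment and depth differ together between day 0 and the cultures and cannot be told apart.

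A cell that divides passes through G1, S, G2 and M. D-type cyclins and their kinases act in G1 and inactivate RB proteins, which releases E2F factors, and these switch on E-type cyclins and replication genes such as the MCM helicase subunits, Pcna and the ribonucleotide reductase genes. Later, B-MYB and FOXM1 switch on the G2/M genes, among them the mitotic cyclins, the kinase Cdk1, spindle motors and kinetochore proteins. In the adult lung most epithelial, endothelial and mesenchymal cells rest outside the cycle, and alveolar type II (AT2) and airway secretory cells can re-enter it.

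The promoters of the 2 main groups of members differed in the short sequences they hold. RefSeq promoter windows (250 bases before to 50 after the gene start, build GRCm38.p6) were at hand for 35 of the 43 genes, 21 G2/M, 13 S and 1 G1 cyclin, and the genes without a window were Tpx2, Ccna2, Aurkb, Mcm4, Gins2, Ccne2, Ccnd1 and Ccnd2. Motifs of 3 kinds were searched on both strands: the cell cycle homology region of G2/M promoters (CHR, TTTGAA), the CCAAT box bound by NF-Y (CCAAT), and E2F sites (TTTCCCGC, TTTCGCGC, TTTGCCGC, TTTGGCGC or GGCGGGAA). The 4 stretches printed here run to 15 bases past the start, 5′ to 3′ on the gene's strand, and are shown because they hold these motifs side by side, with every match in capitals. Ccnb2 encodes cyclin B2, and Ube2c the ubiquitin-conjugating enzyme of the anaphase-promoting complex, and both are G2/M genes. Mcm6 encodes a subunit of the replicative helicase, and Cdk1, the mitotic kinase, is the G2/M member whose window held all 3 kinds.
Ccnb2, chr9:70421540-70421749, minus strand: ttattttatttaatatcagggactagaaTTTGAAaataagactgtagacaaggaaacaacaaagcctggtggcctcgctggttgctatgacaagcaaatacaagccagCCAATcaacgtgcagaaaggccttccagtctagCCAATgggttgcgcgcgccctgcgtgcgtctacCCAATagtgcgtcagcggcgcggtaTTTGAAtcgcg
Ube2c, chr2:164769734-164769943, plus strand: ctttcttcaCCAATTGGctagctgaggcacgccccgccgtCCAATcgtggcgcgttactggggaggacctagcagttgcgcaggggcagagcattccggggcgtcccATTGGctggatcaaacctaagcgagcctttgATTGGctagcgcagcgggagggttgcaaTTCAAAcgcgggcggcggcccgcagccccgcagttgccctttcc
Mcm6, chr1:128359691-128359900, minus strand: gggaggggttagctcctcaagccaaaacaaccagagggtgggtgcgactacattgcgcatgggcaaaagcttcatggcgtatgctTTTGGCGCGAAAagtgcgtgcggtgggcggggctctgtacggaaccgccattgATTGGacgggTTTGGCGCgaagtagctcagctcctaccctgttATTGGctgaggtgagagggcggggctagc
Cdk1, chr10:69352898-69353107, minus strand: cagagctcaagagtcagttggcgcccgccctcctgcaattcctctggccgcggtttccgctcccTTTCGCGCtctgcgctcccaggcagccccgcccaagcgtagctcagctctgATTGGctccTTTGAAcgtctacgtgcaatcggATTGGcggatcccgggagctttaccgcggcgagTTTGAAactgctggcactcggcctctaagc
The Ccnb2 stretch has 3 CCAAT boxes on the gene's strand and TTTGAA both 167 bases before and 5 bases past the start. In Ube2c the CHR letters lie on the other strand (TTCAAA, first base 29 bases before the start), below CCAAT boxes in both orientations. Mcm6 has no CHR match and holds E2F letters that begin 110 and 47 bases before the start, the first of which overlaps a match on the opposite strand. Counted by gene, where a match in any window of a gene counts, CHR letters were in 15 of 21 G2/M genes (71.4%) and in 1 of 13 S genes (7.69%, Mcm2), against 20.2% of all 27025 genes in the table. E2F letters were in 8 of 13 S genes (61.5%) and 1 of 21 G2/M genes (4.76%), against 4.46% of all genes, and the 8 were Cdc6, Mcm3, Mcm5, Mcm6, Mcm7, Pclaf, Rrm1 and Uhrf1. CCAAT boxes were common in both groups, 19 of 21 and 11 of 13, against 41.1% of all genes. A match of letters is a description of the sequence and not evidence that a factor binds there.

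Kept cells, those with at least 500 genes and at most 15% mitochondrial UMIs, numbered 7350, 7893, 9311 and 9178 at days 0, 8, 13 and 20, with median depths of 2558.5, 17075, 9527 and 12791 UMIs and 49087, 469828, 216249 and 319846 UMIs of the members. Between 19 and 30 barcodes were shared by any pair of libraries, at most 0.408% of the smaller one. Cells were typed by gates: at least 3 UMIs from at least 2 genes of a marker list that held at least 70% of all marker UMIs of the cell. At days 0, 8, 13 and 20 the epithelial gate took 1155, 597, 1575 and 915 cells, the macrophage and monocyte gate 1118, 6453, 5940 and 4797, and the mesenchymal gate 167, 485, 1030 and 2684. The epithelial gate thus held 7.56 to 16.9% of the kept cells of a library, beside the labels' alveolar epithelial cells. Genes outside the gates were looked at as a check. Krt8, a keratin of simple epithelia, stood at 457 to 1086 CPM (UMIs per 1000000 UMIs of the summed cells) in the epithelial gate on the 4 days. In the macrophage and mesenchymal gates it stood at 2.27 to 17.1 CPM. Col1a1, taken as mesenchymal, was at 498 to 1784 CPM in the mesenchymal gate and at 3.72 to 9.56 CPM in the epithelial gate. Sparc, also taken as mesenchymal, did not keep to its gate. It was 1381 and 279 CPM in epithelial cells of days 0 and 8, against 2370 and 1025 CPM in mesenchymal cells. A T and NK gate took 926 cells at day 0 and 66 at day 20, and an endothelial gate 1391 at day 0.

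In the sorted lung cells few epithelial cells carried G2/M messages, and after 8 days in culture about 1 in 4 did. To compare libraries of unequal depth, each cell was thinned to 2000 UMIs, and a cell was counted as G2/M-positive with at least 3 UMIs from at least 2 of the 24 G2/M genes. In the epithelial gate the share of such cells was 0.732% at day 0 (6 of 820 cells, 0.269 to 1.59), 24.2% at day 8 (140 of 579, 20.7 to 27.9), 16.1% at day 13 (248 of 1536, 14.3 to 18.1) and 3.41% at day 20 (30 of 880, 2.31 to 4.83). The intervals of day 20 and day 0 lie apart, and both lie far below those of days 8 and 13. Macrophages and monocytes were at 3.22% at day 0 (2.18 to 4.56), 28.1% at day 8 (27.0 to 29.3), 4.44% at day 13 (3.921 to 5.002) and 7.39% at day 20 (6.65 to 8.18), and so were low a library earlier than the epithelial cells. Mesenchymal cells had 0 of 99 at day 0, which allows a share of up to 3.03% taken as 3 cells of 99 (the Clopper-Pearson upper limit is 3.66%), and 28.8% (24.8 to 33.0), 17.3% (15.03 to 19.8) and 20.2% (18.6 to 21.8) in culture. For comparison, ciliated cells of day 0, which are terminally differentiated, had 1.06% (3 of 282). Their median was 3534 UMIs per gated cell, against 3121 in the epithelial gate. They are part of the epithelial gate, so these 3 are among its 6 positive cells. Endothelial cells had 0.296% (2 of 676) and smooth muscle cells and pericytes 0 of 124. Granulocytes of day 0 had 5.88% (1 of 17, 0.149 to 28.7), as 105 of their 122 cells had under 2000 UMIs. Summed over the 24 G2/M genes, they stood at 908 CPM, against 49.3 CPM in epithelial cells of day 0. Without thinning, the 4 epithelial shares were 0.952, 50.9, 38.9 and 11.6%.

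**Figure D1:**
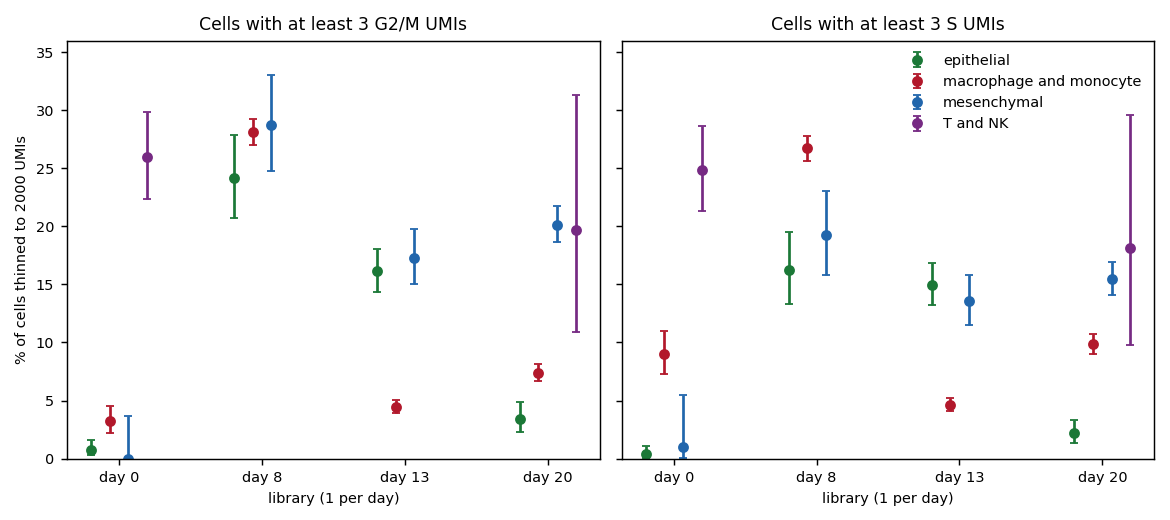
Share of cells with at least 3 G2/M UMIs (left) and at least 3 S UMIs (right), in % of cells thinned to 2000 UMIs, by library day and gated type; points are shares and bars their 95% Clopper-Pearson intervals, which cover counting error only. Epithelial cells are high at days 8 and 13 and low at day 20, macrophages are high at day 8 alone among the cultures, and mesenchymal cells stay between 17.3 and 28.8% for G2/M in all 3 cultures.

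By the same rule the S shares were also highest at day 8 in all 3 gates. In macrophages the S share of day 13 was below that of day 0, which the G2/M share was not. Epithelial shares with at least 3 S UMIs were 0.366, 16.2, 14.97 and 2.16% at days 0, 8, 13 and 20, macrophage shares 9.003, 26.7, 4.63 and 9.85%, and mesenchymal shares 1.01, 19.3, 13.6 and 15.5%. Among G2/M-positive epithelial cells 43.6% at day 8, 45.2% at day 13 and 20.0% at day 20 were also S-positive. Cells with both sets had more UMIs before thinning: in mesenchymal cells of day 20 the median was 39662 UMIs for cells positive for both and 17594 for cells positive for neither, and in epithelial cells of day 8 it was 25801 and 14076.5. The part of this depth in the shares was not tested. Positive cells, which have at least 3 G2/M UMIs by definition, had medians of 6, 7.5 and 5 such UMIs in epithelial cells, 8, 6 and 8 in macrophages and 7, 8 and 8 in mesenchymal cells at days 8, 13 and 20.

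In epithelial cells, day 8 against day 0, nearly all members were higher. Mki67, the proliferation antigen that coats mitotic chromosomes, was 1.81 CPM (9 UMIs) at day 0, 116 CPM at day 8, 80.6 CPM at day 13 and 19.4 CPM at day 20. Top2a, which untangles sister chromatids, was 3.22, 125, 89.4 and 25.9 CPM on the same days. Birc5, which encodes survivin of the chromosomal passenger complex, was 1.01, 134, 99.2 and 26.3 CPM. The order was the same for all 3, with day 8 highest, day 13 next, day 20 well below and day 0 lowest. A call of higher or lower needed a 2-fold ratio, 20 CPM or more on the larger side and an interval without 1. By that rule 35 of the 43 members were higher at day 8, 0 were lower, 3 were neither and 5 stayed under 20 CPM on both days. The background was 11.8% of 7345 genes called higher and 27.9% called lower. Passing the 20 CPM filter at day 8 alone already implies a large ratio where day 0 is near 0, so the count describes the members and is no test. The median log2 ratio was 4.73 over the 38 members and -0.34 over all genes at or above that minimum. Mki67 was 64.3-fold higher (33.8 to 141), Birc5 133-fold (56.9 to 410), Ube2c 67.8-fold (38.7 to 131) and Ccnb1, the cyclin B1 gene, with 0 UMIs at day 0, at least 68.3-fold higher, taking day 0 at a floor of 3 UMIs.

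**Figure D2:**
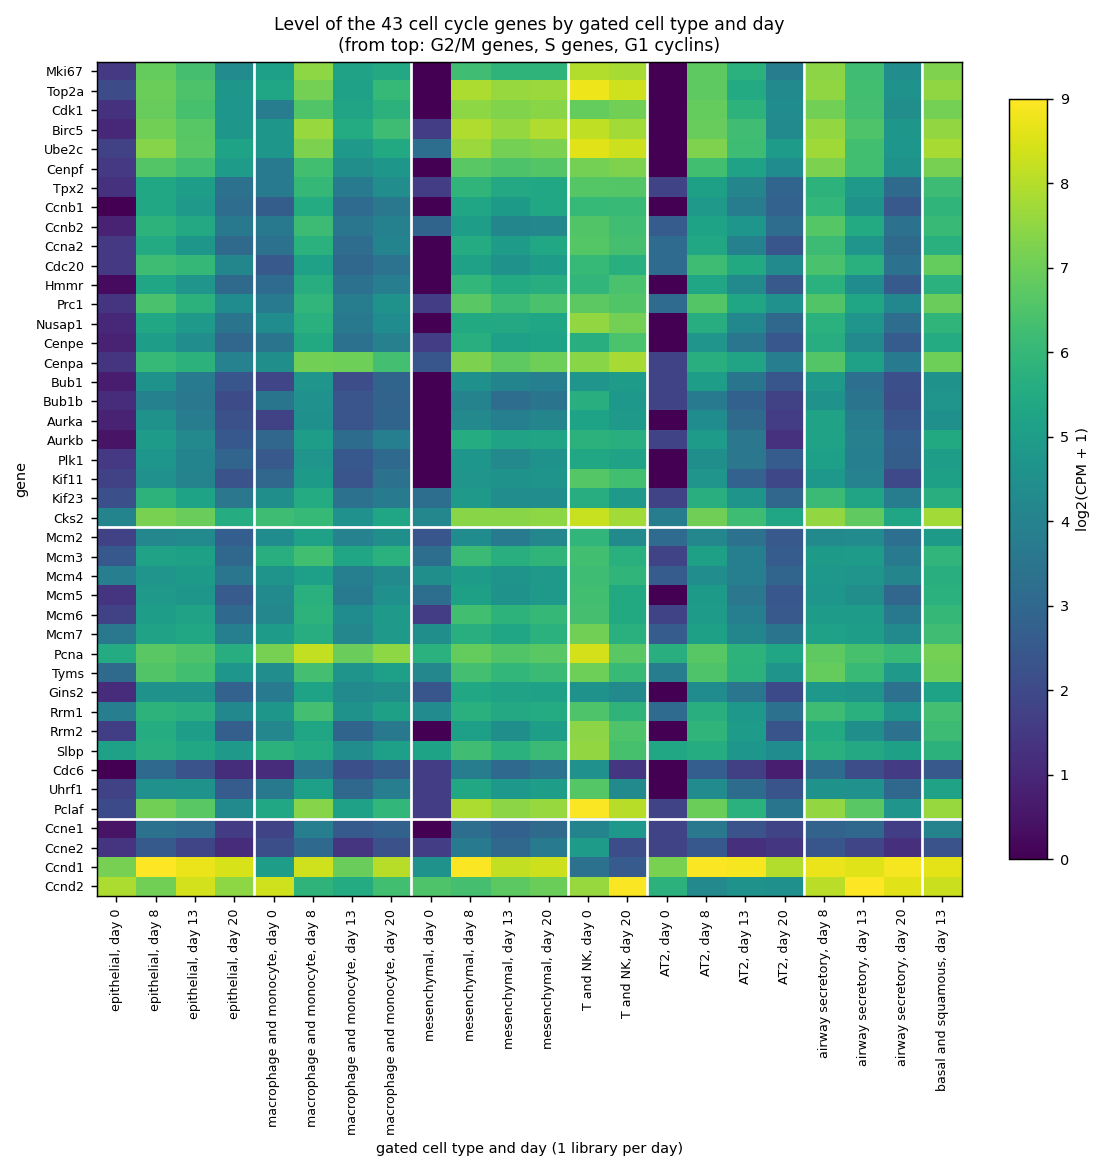
Level of each of the 43 members (rows; G2/M genes, S genes and G1 cyclins from top to bottom) as log2(CPM + 1) of summed UMIs in each gated type and day (columns, 1 library per day, types with at least 50 cells). The G2/M and S rows are dark in epithelial, mesenchymal and AT2 cells of day 0 and light at day 8 in every type shown.

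The G2/M genes differed between days in the same direction across their roles in mitosis. Among the mitotic cyclins, Ccna2 was 1.81, 43.9, 26.2 and 7.56 CPM in epithelial cells at days 0, 8, 13 and 20, Ccnb1 0, 41.2, 27.4 and 8.36 CPM, and Ccnb2 0.804, 55.4, 42.4 and 11.3 CPM. Their kinase Cdk1 was 1.41, 118, 83.1 and 25.8 CPM. Of the other mitotic kinases, Aurka, which acts at the spindle poles, was 0.804, 23.6, 13.2 and 3.72 CPM, Aurkb, of the chromosomal passenger complex, 0.402, 30.4, 17.9 and 4.51 CPM, and Plk1, polo-like kinase 1, 1.81, 25.6, 15.5 and 6.64 CPM. These kinases were thus under 20 CPM by day 13. Among spindle genes, Prc1, which bundles microtubules of the central spindle, was 1.61, 84.8, 53.8 and 19.97 CPM, Tpx2, a spindle assembly factor, 1.41, 40.9, 31.96 and 9.36 CPM, and Hmmr 0.201 (1 UMI), 39.4, 24.9 and 7.56 CPM. The order of days was the same for each of these genes. Cdc20, which starts anaphase, kept the most of its day 8 level at day 13 among the G2/M genes (72.1 and 62.96 CPM, ratio 0.874, 0.805 to 0.949).

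The smallest G2/M ratio of day 8 against day 0 in epithelial cells was that of Cks2, a small subunit of cyclin-dependent kinase complexes, which was already at 15.7 CPM at day 0 and 145 CPM at day 8 (9.27-fold, 7.38 to 11.8). The S genes covered a wider range. Pclaf, which encodes a PCNA-associated factor, was 3.02 CPM at day 0 and 134 CPM at day 8 (44.5-fold, 26.9 to 79.6), Mcm5 1.61 and 27.8 CPM (17.3-fold, 8.67 to 40.4), and Tyms, the thymidylate synthase gene, 7.64 and 92.98 CPM (12.2-fold, 8.81 to 17.3). At the other end Pcna, the sliding clamp of replication and repair, was 45.8 and 102 CPM (2.23-fold, 1.93 to 2.58), and Slbp, which binds histone messages, and Mcm4 were 1.45-fold and 1.85-fold, under the 2-fold line. Pcna and Slbp were thus measured at 45.8 and 34.2 CPM in the sorted cells, of which 0.366% were S-positive.

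From day 8 to day 13, 36 of the 38 epithelial members at or above 20 CPM passed the 2-fold rule in neither direction. The exceptions were 1 lower (Bub1, a spindle checkpoint kinase, 23.5 and 11.7 CPM) and 1 higher (Ccnd2), where 1.51% of 5897 genes were lower and 3.51% higher. The median log2 ratio was -0.39 over these members and 0.05 over all genes. The summed G2/M level of day 13 was 0.710 (0.698 to 0.723) of day 8, and the summed S level 0.885 (0.862 to 0.908). From day 13 to day 20, 29 members were lower and 0 higher, 4 were neither and 10 were under 20 CPM on both days, against 6.88% lower and 3.39% higher of 5930 genes. The median log2 ratio was -1.72 over the 33 members and -0.15 over all genes. The 3 smallest ratios were those of S genes: Rrm2, the regulated subunit of ribonucleotide reductase, was 32.2 and 5.64 CPM (ratio 0.175, 0.139 to 0.219), Pclaf 102 and 18.6 CPM (0.183, 0.161 to 0.207), and Mcm5 26.3 and 4.98 CPM (0.189, 0.147 to 0.240). The G2/M genes at or above 20 CPM lay between 0.241 (Mki67) and 0.400 (Cenpf, a kinetochore protein) of day 13. Pcna (0.539), Slbp (0.679), Ccnd1 (0.819) and Ccnd2 (0.525) were the 4 that stayed within 2-fold. At day 20 the levels were still above those of the sorted cells for 8 members, among them Birc5 (26.2-fold, 11.1 to 81.1), Cdk1 (18.3-fold, 8.82 to 45.9) and Tyms (3.34-fold, 2.39 to 4.80), where 8.17% of 7148 genes were higher. That count was 27 with a minimum of 5 CPM (8.93% of genes) and 5 with each cell weighted equally (6.9%).

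**Figure D3:**
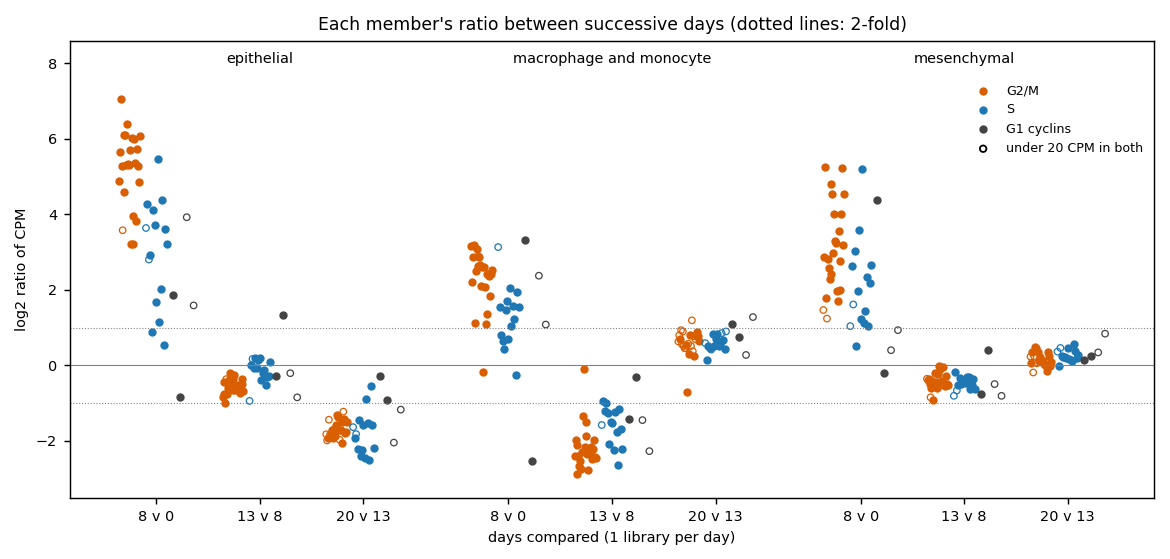
Log2 ratio of CPM of each member between successive libraries, for epithelial, macrophage and mesenchymal gates (G2/M genes orange, S genes blue, G1 cyclins dark grey; open circles are members under 20 CPM on both days; a side under 3 UMIs is taken as 3). The G2/M points of epithelial cells have a median of 5.33 for day 8 against day 0 and all lie below -1 for day 20 against day 13, and the mesenchymal points lie within 2-fold after day 8.

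The epithelial gate held several cell types, and the members differed among them. Narrower gates within it took AT2 cells (83, 251, 317 and 245 at days 0, 8, 13 and 20), airway secretory cells (33, 66, 454 and 267), AT1 cells (527, 29, 49 and 54), ciliated cells (355 at day 0) and basal and squamous cells (310 at day 13). G2/M-positive shares of AT2 cells were 0 of 69, 20.7% (15.8 to 26.3), 9.15% (6.21 to 12.9) and 2.48% (0.915 to 5.32). Airway secretory cells were at 34.8% (23.5 to 47.6), 14.9% (11.7 to 18.5) and 3.76% (1.82 to 6.80) at days 8, 13 and 20, and basal and squamous cells of day 13 at 30.7% (25.5 to 36.2). The order at day 13 was therefore basal and squamous, airway secretory and AT2, and the interval of the first does not meet the other 2. At day 20 the intervals of AT2 and airway secretory cells overlap. Of the AT1 gate, 1 of 331 cells was positive at day 0 and 1 of 41 at day 20.

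Within AT2 cells the members were lower already at day 13. Mki67 in AT2 cells was 0 (0 UMIs), 107, 52.4 and 12.8 CPM at days 0, 8, 13 and 20, and Top2a 0, 109, 44.3 and 18.9 CPM. Day 8 against day 0 had 33 members higher and 1 (Ccnd2) lower in AT2 cells (11.9% and 19.8% of 6401 genes). At day 13 against day 8, 20 members were lower and 0 higher, where 2.23% of 5281 genes were lower and 0.871% higher, and at day 20 against day 13, 13 were lower and 0 higher, where 3.24% of 5155 were lower and 1.63% higher. At day 20 against day 0, 8 members reached 20 CPM, of which Ube2c and Cks2 were higher and Slbp and Ccnd2 lower, where 6.22% and 20.7% of 6124 genes were. With a minimum of 5 CPM 6 members were higher (4.09% of genes) and with a gate of 90% 8 were (6.23%), and 31 were lower at day 20 against day 13 at 5 CPM (5.13%). Airway secretory cells had 19 members lower and 1 (Ccnd2) higher at day 13 (2.76% and 2.45% of 5968 genes) and 25 lower and 0 higher at day 20 (5.01% and 3.72% of 6071). Against AT2 cells of the same library, basal and squamous cells of day 13 were higher in 39 members and lower in 0, with a background of 21.8% higher of 5922 genes: Mki67 was 151 against 52.4 CPM, Mcm5 52.6 against 10.9 CPM and Cdc20, the activator of the anaphase-promoting complex, 117 against 43.4 CPM. The 310 basal and squamous cells are 1 library's, and the mix of these types differed between days, so the epithelial values above also carry that mix.

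Macrophages and monocytes of day 0 had 12 members higher and 1 (Ccnd1) lower than epithelial cells of the same library, with 26 members under 20 CPM in both (20.5% and 27.4% of 7988 genes). Mki67 was 33.1, 176, 35.2 and 41.8 CPM at days 0, 8, 13 and 20 in this gate, Top2a 38.1, 137, 34.7 and 63.8 CPM, and Pcna 141, 289, 123 and 177 CPM. Day 8 was the highest for all 3. Day 8 against day 0 had 33 members higher and 1 lower (10.2% and 18.9% of 6496 genes). Cks2 was not among them, at 72.2 and 64.0 CPM (0.887, 0.809 to 0.976), although every other G2/M gene was higher. Day 13 against day 8 had 36 members lower and 0 higher (6.34% and 4.4% of 5754 genes), with Kif11, a spindle motor, at 28.7 and 4.19 CPM (0.146, 0.127 to 0.168) and Ccnb2 at 70.3 and 10.6 CPM (0.150, 0.138 to 0.164). From day 13 to day 20 only Ccnd1 passed the 2-fold rule, where 1.72% of 5567 genes were higher. At 1.5-fold 12 members were higher at that step, against 5.87% of genes, and the summed G2/M level was 1.30-fold (1.28 to 1.33) and the summed S level 1.48-fold (1.46 to 1.51) that of day 13. Mesenchymal markers in the macrophage gate stood at 2.64% of their mesenchymal level at day 13 and 4.46% at day 20, which corresponds to 41.2 of 477 and 77.2 of 622 CPM of G2/M sum, and their part in the result was not tested. Against day 0, day 20 had 5 members higher (Cdk1, Birc5, Cenpf, Cenpa and Ccnd1) and 1 lower (Ccnd2), where 11.1% and 18.2% of 6547 genes were, and 13 were higher at 1.5-fold (20.9% of genes) and 12 with a minimum of 5 CPM (11.6%). The gate of day 0 held resident lung cells and that of the cultures held cells that had been cultured, so the libraries do not follow the same cells.

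Between days 8 and 13 Cenpa differed from the other G2/M genes in macrophages. Cenpa, which encodes the histone H3 variant of centromeres, was 21.3 CPM at day 0, 135 CPM at day 8, 127 CPM at day 13 and 78.3 CPM at day 20. Its ratio of day 13 to day 8 was 0.943 (0.916 to 0.971), while those of the other 23 G2/M genes in this gate were at most 0.394 (Cdk1), and in epithelial cells Cenpa was 64.8, 54.0 and 14.8 CPM at days 8, 13 and 20, like its group. At day 13 a Cenpa UMI was seen in 1133 of 5768 thinned macrophages (19.6%), and those cells had a mean of 1.13 UMIs of the other G2/M genes, against 0.339 in cells without it. Cells with a Birc5 UMI numbered 232 (4.02%) and had a mean of 5.22 such UMIs. At day 8 the means were 7.003 for Cenpa and 6.94 for Birc5. Cenpa made up 26.6% of all G2/M UMIs of the macrophages of day 13, and without it their S to G2/M ratio was 1.08 instead of 0.790. No protein-coding gene overlaps Cenpa in the GENCODE M21 annotation of mm10. The annotation behind the counts is not given in the sources used here.

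Mesenchymal cells kept the members high throughout culture. Mki67 was 0 (0 UMIs), 75.5, 56.4 and 56.3 CPM at days 0, 8, 13 and 20, Top2a 0, 238, 196 and 201 CPM, Cdk1 0, 178, 155 and 168 CPM, and Pclaf 2.13, 236, 172 and 194 CPM. The 3 culture values of each gene lie within 1.5-fold of each other. Day 8 against day 0 had 35 members higher and 0 lower (14.1% and 33.3% of 7473 genes), and the next 2 steps had 0 higher and 0 lower (0.91% and 0.41% of 5603 genes, then 0.869% and 0.434% of 5524). The day 0 gate rests on 167 cells and 25 G2/M UMIs in all. The cultures were seeded with MLg fibroblasts, so the day 0 and culture cells of this gate need not share a source. Fewer than 2 reporter UMIs were found in 475 of 483, 1000 of 1017 and 2575 of 2594 thinned mesenchymal cells of days 8, 13 and 20. The same held for 87 of 99 such cells of day 0, and the source of the cultured cells was not tested. With a stricter gate of 90% of marker UMIs, the G2/M-positive shares of the cultures were 20.1, 9.64 and 15.2%.

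Among the sorted cells of day 0 the T and NK gate had the highest level. Its Top2a was 432 CPM, Pclaf 487 CPM, Ube2c 391 CPM and Mki67 249 CPM, and 25.95% of 551 thinned cells were G2/M-positive (22.3 to 29.8), of which 84.6% were also S-positive. Against macrophages and monocytes of the same library 38 members were higher and 1 lower (15.3% and 22% of 6898 genes). The cells were split after these values were seen by Rag1 and Ptcra, genes of immature T cells. The share was 53.6% (46.0 to 61.0) in 181 cells with a UMI of either and 12.4% (9.25 to 16.2) in 370 without, with median depths of 5354 and 2963.5 UMIs. The 66 T and NK cells of day 20 had a G2/M share of 19.7% (10.9 to 31.3), with Top2a at 329 CPM and Mki67 at 223 CPM, and 31 members higher and 1 (Ccnd1) lower than in macrophages of that library (17.2% and 25.5% of genes). Compared with day 0, 7 members were lower in them, all of S phase or G1 (Pcna 102 against 341 CPM, Uhrf1 18.5 against 99.0, Mcm2 18.5 against 60.02, Mcm7 52.0 against 134, Slbp 82.2 against 186, Cdc6 1.68 against 22.5 and Ccne2 3.36 against 29.6), and 1, Ccnd2, was higher, where 21% and 9.49% of 6251 genes were. The 7 are 16.7% of the 42 members at or above 20 CPM, a smaller share than that of all genes. The Cdc6 and Ccne2 values of day 20 rest on 1 and 2 UMIs, and 13 members were lower with a gate of 90% (20.0% of genes). B cells of day 0 had 3.42% positive cells (5 of 146).

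Within 1 library, the cell types of day 8 differed little in their members. Macrophages against epithelial cells had 4 members higher and 3 lower, against a background of 19.6% and 18% of 6666 genes. Mesenchymal against epithelial cells had 2 and 1 (16.4% and 17.1% of 6550), and mesenchymal cells against macrophages 1 and 3 (18.5% and 20% of 6575). Macrophages were higher than epithelial cells in Pcna, Mcm2, Mcm3 and Cenpa and lower in Cdc20, Cks2 and Ccnd2, mesenchymal cells higher than epithelial cells in Cenpa and Mcm6 and lower in Cdc20, and mesenchymal cells higher than macrophages in Cks2 and lower in Mki67, Ccnb2 and Pcna. Among these Pcna was 289 CPM in macrophages, 116 in mesenchymal and 102 in epithelial cells, Mki67 176, 75.5 and 116 CPM, Cks2 64.0, 168 and 145 CPM, Cdc20 34.8, 34.5 and 72.1 CPM, and Cenpa 135, 148 and 64.8 CPM. At day 13 macrophages stood apart, with 27 members lower and 1 (Cenpa) higher than in epithelial cells (23.2% and 18.1% of 6676 genes) and 26 lower than in mesenchymal cells (23.6% of genes were higher in mesenchymal cells). At day 20 it was the epithelial cells, with 31 members lower than in mesenchymal cells (23.0% of 6525 genes were higher in mesenchymal cells) and 14 lower than in macrophages (22.6% of 6661). RNA carried over between cell types was gauged from the other types' markers: in the epithelial gate macrophage markers stood at 2.81, 2.45 and 0.835% of their level in macrophages at days 8, 13 and 20, which corresponds to 47.5, 11.7 and 5.20 CPM of G2/M sum out of 1609, 1143 and 359 CPM, and mesenchymal markers at 1.17, 1.31 and 2.29%, which corresponds to 23.3, 20.5 and 39.6 CPM.

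The balance of S against G2/M messages differed between the sorted cells and the cultures in the epithelial, macrophage and mesenchymal gates. In epithelial cells the summed S level was 146, 706, 624 and 205 CPM and the summed G2/M level 49.3, 1609, 1143 and 359 CPM at days 0, 8, 13 and 20, so S to G2/M was 2.96 (2.55 to 3.43), 0.439 (0.427 to 0.450), 0.546 (0.536 to 0.556) and 0.569 (0.544 to 0.595). Mesenchymal cells were at 3.80 (2.42 to 6.16) at day 0 and at 0.482, 0.456 and 0.482 in culture. Macrophages lay above the epithelial and mesenchymal gates in every culture, at 1.23, 0.633, 0.790 and 0.897. T and NK cells went from 0.630 at day 0 to 0.338 (0.307 to 0.372) at day 20. Other day 0 types with few G2/M UMIs were also high: smooth muscle cells and pericytes at 7.42 (4.04 to 14.9), AT1 cells at 3.84 (2.93 to 5.09) and endothelial cells at 2.83 (2.45 to 3.27). Pcna alone gave 37.1, 30.3 and 31.96% of the S UMIs in these 3 types. Not all sorted cells were high: at day 0 granulocytes were at 0.527, B cells at 0.809 and ungated cells at 0.751. The ratio of sums depends on which genes are in each list and is compared here only between types and days.

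**Figure D4:**
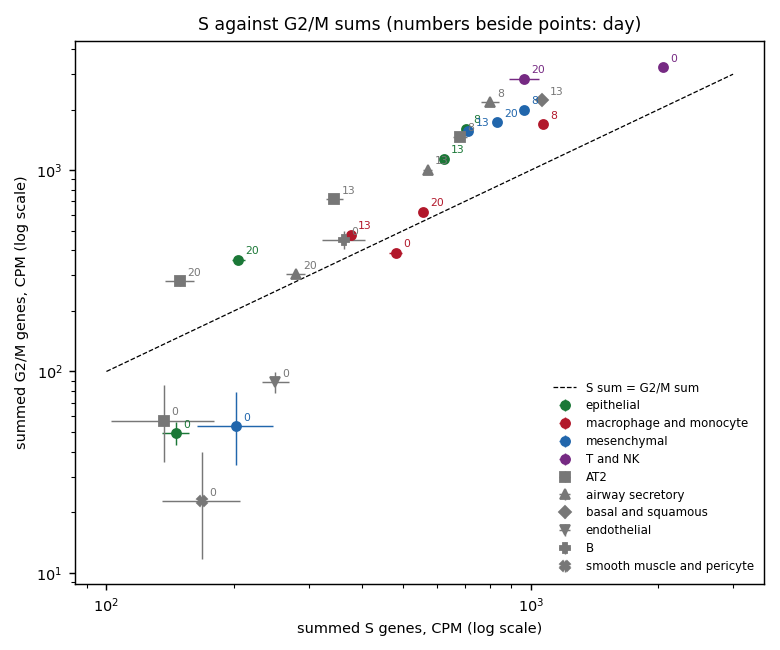
Summed G2/M level against summed S level in CPM, both on log axes, for each gated type (colour and marker) and day (number beside the point), with 95% Poisson intervals of counting error; the dashed line marks equal sums. Epithelial, mesenchymal, endothelial, AT2 and smooth muscle cells of day 0 lie below the line, as do macrophages of day 0, and all culture points lie above it.

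Ccnd1, which encodes cyclin D1, was 142, 514, 423 and 347 CPM in epithelial cells at days 0, 8, 13 and 20 (day 20 against day 0 2.44-fold, 2.26 to 2.64). That is the order of days of Mki67 and Top2a, over a narrower range. In macrophages it was 32.2, 322, 121 and 260 CPM, and in T and NK cells 9.44 and 5.03 CPM at days 0 and 20. Ccnd2, the cyclin D2 gene, went the other way in macrophages, at 328, 56.4, 45.3 and 75.9 CPM (day 8 against day 0 0.172, 0.164 to 0.181). In the AT1 gate Ccnd2 was 361 CPM at day 0 and 49.5 CPM at day 20, and Ccnd1 4.66 and 189 CPM. That contrast of 527 with 54 cells had 9 members higher and 1 lower (11.9% and 32.3% of 6905 genes). Ccnd2 also divided the cultured epithelium by type. At day 13 it was 562 CPM in airway secretory cells, 312 CPM in basal and squamous cells and 23.7 CPM in AT2 cells, and airway secretory cells were 15.2-fold (11.9 to 19.7), 23.7-fold (19.9 to 28.4) and 17.6-fold (14.3 to 22.0) above AT2 cells at days 8, 13 and 20. Ccnd1 in the same 2 types was 425 and 489 CPM at day 8, 375 and 475 CPM at day 13 and 473 and 247 CPM at day 20. The E-type cyclins Ccne1 and Ccne2 were at 13.3 CPM or less in the epithelial, macrophage and mesenchymal gates.

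**Figure D5:**
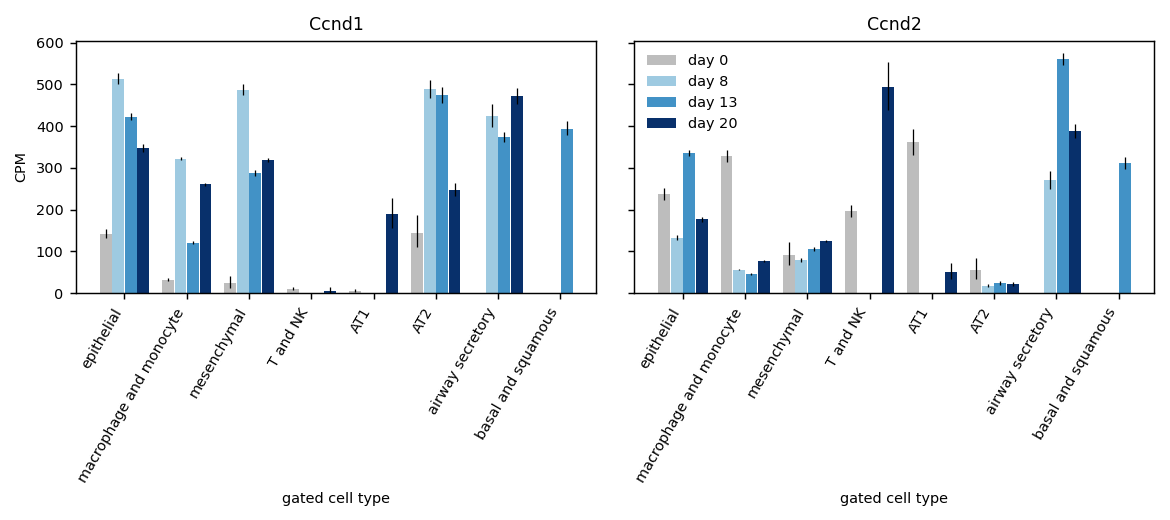
Level of Ccnd1 (left) and Ccnd2 (right) in CPM by gated type and day, as bars from 0 with 95% Poisson intervals; types and days with fewer than 50 cells have no bar. Ccnd1 is at 142 CPM or more in epithelial cells of every day and at 9.44 CPM or less in T and NK cells, while Ccnd2 is high in airway secretory cells and at 54.3 CPM or less in AT2 cells.

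The EGFP and tdTomato reporters were used to ask whether labelled and unlabelled epithelial cells differed in G2/M share. Cells with at least 2 reporter UMIs of which at least 80% were EGFP were called EGFP-dominant, and likewise for tdTomato. Among thinned epithelial cells of day 0, 413 of 820 were EGFP-dominant and 70 tdTomato-dominant. Of the 933 macrophages and monocytes of day 0, 3 were EGFP-dominant and 199 tdTomato-dominant, and of the 551 T and NK cells 2 and 102. The dividing T and NK cells and macrophages of day 0 thus mostly lacked a dominant EGFP count. At day 8 the share was 11.1% in EGFP-dominant cells (7 of 63, 4.59 to 21.6) and 26.1% in tdTomato-dominant cells (58 of 222, 20.5 to 32.4), with median depths of 14682 and 20732.5 UMIs. At day 13 it was 15.3% (65 of 425, 12.0 to 19.1) and 17.4% (109 of 625, 14.5 to 20.6), and at day 20 3.80% (3 of 79) and 3.49% (11 of 315). The intervals overlap on all 3 days, at day 8 only from 20.5 to 21.6%. Such overlap does not show equal shares, and the difference was not tested. At days 13 and 20 each share lay inside the other's interval. Epithelial cells with mixed reporters or under 2 reporter UMIs did not enter this comparison. Their shares were 24.6% (34 of 138) and 26.3% (41 of 156) at day 8, 14.4 and 15.9% at day 13, and 4.88 and 2.48% at day 20.

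Further genes of the cell cycle were taken from lists of its other parts. In epithelial cells at day 8 against day 0, 18 of 36 further mitosis genes were higher and 0 lower with 20 at or above 20 CPM, and 13 of 28 replication and nucleotide genes were higher and 0 lower with 14 at or above it, where 11.8% of all genes were higher and 27.9% lower. Cdca8, which encodes borealin, was 1.41 and 70.5 CPM. At day 20 against day 13, 14 replication genes and 11 mitosis genes were lower and 0 higher, where 6.88% of all genes were lower. Among them Tk1, thymidine kinase 1, was at 32.8 and 5.57 CPM. Genes of the E2F, RB, MYB and FOXM1 regulators were mostly too low to measure, with 4 of 13 at or above 20 CPM in the first contrast, of which Rbl2, a pocket protein gene, was lower (36.4 and 10.6 CPM), as was Rb1 (31.0 and 13.3 CPM), and Tfdp1, which encodes an E2F partner, was higher (14.7 and 31.6 CPM).

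The CDK inhibitors differed among themselves. In epithelial cells at day 8 against day 0, 3 of 7 were higher (Cdkn2a, Cdkn2c and Cdkn2d) and 1 was lower (Cdkn1c). Of all 7345 genes at or above 20 CPM, 11.8% were higher and 27.9% lower. Cdkn1a, the p21 gene, was 69.6, 114, 117 and 116 CPM in epithelial cells at days 0, 8, 13 and 20, 185, 302, 265 and 298 CPM in macrophages, and 104, 233, 150 and 176 CPM in mesenchymal cells. Cdkn2a, which encodes p16INK4a and p19ARF, had 0 UMIs in epithelial cells of day 0 and was 37.1, 43.7 and 61.7 CPM at days 8, 13 and 20, and in macrophages it was 4.39, 42.4, 60.9 and 171 CPM. In mesenchymal cells of the cultures Cdkn2a was at 1.77 to 2.65 CPM, and in T and NK cells it was 2.74 CPM at day 0 and 278.5 CPM at day 20. Cdkn1c, the p57 gene, was 148 CPM in epithelial cells of day 0 and 38.5, 24.9 and 26.7 CPM in culture. Cdkn1b, the p27 gene, was 96.5 CPM in macrophages of day 0 and 25.6 to 35.9 CPM in culture, and Cdkn2b 81.2 CPM in epithelial cells of day 0 and 39.7 to 44.7 CPM in culture. Cdkn2c was 3.22, 23.4, 21.1 and 23.2 CPM and Cdkn2d 19.3, 40.01, 26.8 and 19.9 CPM in epithelial cells on the 4 days. Between days 13 and 20 in epithelial cells, 0 of the 7 inhibitors passed the 2-fold rule in either direction. At that step 6.88% of 5930 genes were lower and 3.39% higher, so 0 of 7 is near the share of all genes.

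Across 18 gated types and days with at least 50 cells, the genes closest to the summed G2/M level were ranked by Pearson correlation of log2(CPM + 1) among 11169 genes. The 10 closest outside the members were Cdca3 (0.985), Shcbp1 (0.985), Spc25 (0.984), H1f5 (0.981), Nuf2 (0.980), Dlgap5 (0.975), Knstrn (0.974), Cdca8 (0.970), Sgo1 (0.969) and Ckap2l (0.966). Of these Spc25 and Nuf2 encode subunits of the kinetochore NDC80 complex and H1f5 a linker histone. Among the members Birc5 (0.992) and Aurkb (0.989) were closest, then the S gene Pclaf (0.989), and the lowest values were those of Mcm2 (0.670), Slbp (0.630), Pcna (0.629), Ccnd1 (0.156) and Ccnd2 (-0.001). Members are part of the sum they were set against, the 18 points share 4 libraries, and the values are a description.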

How the data were processed

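Single-cell libraries of 4 samples were made with a Chromium 3' kit, per the labels' protocols, which describe cell suspensions while the labels give nuclear RNA as the molecule. The deposited values are whole-number UMI counts. Per the submitters' processing notes they come from Cell Ranger 7.0.1 and mm10, and EGFP and tdTomato are among the features. The annotation is not given in the sources used here, nor is any doublet removal or correction for ambient RNA.

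Cells with at least 500 genes and at most 15% mitochondrial UMIs were kept and gated on 9 marker lists, of which the mesothelial one took 0 cells, and epithelial cells on 5 narrower lists. Doublets were handled by the 70% gate alone, and an alternative removed the cells with the highest Scrublet scores (Scanpy 1.11.5). UMIs were summed per type and library and scaled to CPM. Sums have exact Poisson, ratios exact conditional Poisson and shares Clopper-Pearson 95% intervals. A side under 3 UMIs was set to 3. Positive cells have at least 3 UMIs from at least 2 genes of a list after thinning to 2000 UMIs, which left out 2766, 223, 332 and 396 cells. Members, marker lists, pathway lists and tests were chosen with earlier results of these data known. The text names every CDK inhibitor and the 10 genes most like the G2/M sum. Of the 43 members, the G2/M genes Nusap1, Cenpe, Bub1b and Kif23 are not described singly. Their levels are rows in the plot of member levels by gated type and day. From the other pathway lists only some genes are named, not always those with the largest ratios. The lists of other CDKs and cyclins and of chromatin and tubulin genes are not described. The calculation of ratio calls was checked on simulated Poisson counts with known folds and no variation between cells or libraries. That check cannot show whether a call would recur in another library. In GENCODE M21, 10 members overlap a protein-coding gene on the opposite strand and 0 on their own. Alternatives changed the gate, cell filter, thinning, UMI minimum, fold, CPM minimum and scaling.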

Additional observations from a re-analysis of the deposited data

Results flagged for a closer look

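The types differed in direction between days 13 and 20. The summed G2/M level of day 20 was 0.314 of day 13 in epithelial cells (0.305 to 0.324), 1.30 in macrophages and monocytes (1.28 to 1.33) and 1.11 in mesenchymal cells (1.09 to 1.12). The summed S level was 0.328 (0.315 to 0.340), 1.48 (1.46 to 1.51) and 1.17 (1.15 to 1.19) in the same order. In the macrophage gate mesenchymal markers stood at 2.64% of their mesenchymal level at day 13 and 4.46% at day 20, which corresponds to 41.2 of 477 and 77.2 of 622 CPM of G2/M sum, and their part in the result was not tested. With 1 library per day the difference between types was not tested.

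Cells that no gate took, which enter no comparison above, also carried G2/M UMIs. The G2/M-positive share of ungated cells was 11.6% (9.83 to 13.5) at day 0, 31.1% (25.2 to 37.4) at day 8, 19.2% (16.2 to 22.5) at day 13 and 19.02% (15.98 to 22.4) at day 20, against 1.06% in ciliated cells of day 0. At day 20 the epithelial share was 3.41%, the macrophage share 7.39% and the mesenchymal share 20.2%, and mesenchymal markers in ungated cells stood at 76.9% of their mesenchymal level. Ungated cells numbered 2063, 308, 742 and 713 on the 4 days, and G2/M-positive cells among them had median depths of 5085, 32474, 28304 and 31299 UMIs.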

How the results depend on the processing

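Of the counts of members within the main types, G2/M-positive shares and S to G2/M ratios set against their value under another setting, 186 stayed within 1.5 times (counts) or inside the counting interval and 82 did not. Of the other values, mostly ratios of single members, 2721 kept their call or stayed in the interval and 147 did not. No call reversed. At days 8, 13 and 20, G2/M-positive shares under other rules were, for epithelial cells, 16.6, 10.9 and 2.21% (thinned to 1000 UMIs), 50.9, 38.9 and 11.6% (no thinning), 16.1, 11.8 and 2.05% (at least 5 UMIs), and 29.0 and 19.3% at days 8 and 13 (at least 2 UMIs). For macrophages they were 20.3, 2.42 and 5.03%, then 71.7, 24.8 and 26.7%, 21.3, 2.77 and 5.42%, and 35.4, 8.72 and 11.0% under the same rules, with 26.7% at day 8 after Scrublet removal. For mesenchymal cells they were 19.6, 12.3 and 14.0%, then 62.7, 47.3 and 45.2%, 22.2, 13.9 and 15.6%, and 34.0, 20.9 and 22.8%, and at gate purity 90% 20.1, 9.64 and 15.2%. S to G2/M ratios without the leading gene of each list were 0.395, 0.511 and 0.500 in epithelial cells, 0.522, 0.724 and 0.701 in macrophages and 0.414, 0.396 and 0.429 in mesenchymal cells. Without Cenpa they were 0.457 and 0.573 (epithelial, days 8 and 13), 0.688, 1.08 and 1.03 (macrophages) and 0.520, 0.490 and 0.520 (mesenchymal). At gate purity 90% they were 0.405, 0.516 and 0.511, then 0.615, 0.823 and 0.930, and 0.487 and 0.506 (mesenchymal, days 13 and 20), and after Scrublet removal 0.566 and 0.615 (epithelial, days 13 and 20) and 0.948 (macrophages, day 20). Of the counts of members, 15 changed by over 1.5 times and 136 did not. Each count followed only the direction with more calls as reported, or higher where both were equal. Lower members were thus not followed in epithelial cells at day 13 against day 8, nor in mesenchymal cells between successive cultures. AT2 cells at day 20 against day 0 (2 higher) had 6 without mitochondrial and ribosomal genes, 4 at gate purity 50%, 8 at 90%, 6 at 5 CPM and 4 with no cell filter. Epithelial cells at day 20 against day 0 (8 higher) had 27 at 5 CPM and 5 by per-cell means. Macrophages at day 20 against day 13 (1 higher) had 12 at 1.5-fold, 0 at gate purity 50% and 2 at 5 CPM, and against day 0 (5 higher) 13 at 1.5-fold and 12 at 5 CPM. AT2 cells at day 20 against day 13 (13 lower) had 31 at 5 CPM, and T and NK cells (7 lower) 15 at 1.5-fold and 13 at gate purity 90%. The cause was not tested, beyond the larger number of genes that a lower minimum admits. Gate purity 90% left too few cells for 3 counts: airway secretory cells at day 13 against day 8, AT1 cells at day 20 against day 0 and airway secretory against AT2 cells at day 8. No paired analysis was possible because each day is 1 library. Leaving out a replicate was not possible for the same reason. Depth limits day 0 most, where 37.6% of kept cells had under 2000 UMIs.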
